A study of Mus musculus with 6 samples.

Results

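Neuronal nicotinic acetylcholine receptors are ligand-gated cation channels that open when acetylcholine or nicotine binds. Each receptor is a ring of subunits in which alpha subunits and beta subunits form the binding sites together, and other subunits, such as those made by Chrna5 and Chrnb3, take a place that is not needed for binding but changes how the channel behaves. Cells also make proteins that decide how many receptors assemble and how they respond: Ric3 is a chaperone of the endoplasmic reticulum, and Lynx1 and Ly6h belong to the Ly6 family of small membrane-anchored proteins that resemble snake toxins and bind the receptors. The medial habenula is known as one of the brain regions richest in receptors that hold the products of Chrna3 and Chrnb4, and its cholinergic neurons send their axons to the interpeduncular nucleus, a circuit studied in nicotine withdrawal.

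Described here are 10 genes of this system, chosen by name: the subunit genes Chrna3, Chrna4, Chrna5, Chrna6, Chrnb2, Chrnb3 and Chrnb4 and the accessory genes Lynx1, Ly6h and Ric3. Each had 1 probe set among the 16464 that carried a gene symbol, in a table of 17370. Expression was measured on 6 Affymetrix arrays: 3 IP arrays of RNA from affinity-purified ribosomes of medial habenula cholinergic neurons, and 3 UB arrays of the unbound RNA that remained in preparations of the same replicate number. Both fractions came from dissected habenula of adults (6 to 12 weeks old) of the BAC transgenic strain Chat DW167, so both carry the transgene, which tags a ribosomal protein in cells where the choline acetyltransferase promoter is active. The labels name no nicotine treatment and do not say how many animals made up a preparation. UB is the RNA left unbound in those preparations and holds RNA of the cholinergic neurons too. It is not RNA of the whole tissue before purification. IP and UB therefore differ in cell type and in whether the RNA was bound, and the part of each was not tested.

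Levels are the deposited log2 values, and fold changes are IP over UB on the log2 scale after an offset taken from spiked-in controls. A level of 50 on the linear scale (log2 5.644) was taken as signal, and a probe set was tested where at least 3 of the 6 arrays reached it. That level was reached by 43.5% to 43.8% of probe sets on IP arrays and by 49.8% to 50% on UB arrays. Over the 8960 tested, 30.9% went up in IP and 43.5% down (limma, Benjamini-Hochberg adjusted p under 0.05), and the arrays of the fractions did not overlap for 80.0%. All 9 measured markers of cholinergic medial habenula neurons were called higher, and their summed linear level was 81499 to 102388 on IP arrays, against 12260 to 19931 on UB arrays. The list was chosen with earlier results of these data known, so its calls are a description and no independent test. Chat was not analysed here. In IP the summed level was 28 against 2532 to 3257 in UB for 6 astrocyte markers, of which Gfap and Slc1a3 stood at the lowest value of the IP arrays, and 209 to 275 against 15574 to 17187 for 5 oligodendrocyte markers. It was 222 to 256 in IP against 8898 to 10218 in UB for 6 thalamic markers, and 276 to 364 against 15392 to 16844 for 5 lateral habenula markers. For 5 markers of the substance P neurons of the medial habenula it was 4699 to 5203 in IP against 18036 to 19626 in UB. For 6 markers of ependyma and choroid plexus it was 1805 to 3681 in IP against 14269 to 35957 in UB. Of the 3 of these that were tested, 1 was called higher in IP and 2 lower. In IP it was 60 to 63 for GABAergic neurons, 214 to 260 for microglia and 26 for endothelial cells. In UB these 3 lists had 2931 to 4347, 771 to 961 and 187 to 310. In such bulk RNA, fewer cells of a type, less RNA per cell and a smaller share of RNA bound to tagged ribosomes cannot be told apart.

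Chrna5, Chrna3 and Chrnb4 lie side by side on chromosome 9 of build GRCm38.p6. Chrna5 spans 54980827 to 55011420, Chrna3 55010117 to 55026562 and Chrnb4 55028154 to 55048953. Chrna5 is read from the plus strand, Chrna3 and Chrnb4 from the minus strand. The gene bodies of Chrna5 and Chrna3 share 1304 bases, and 1591 bases part Chrna3 from Chrnb4. Chrnb3 and Chrna6 form another pair, on chromosome 8 with 3481 bases between them. The other members lie apart: Chrna4 on chromosome 2, Chrnb2 on chromosome 3, Ric3 on chromosome 7, and Lynx1 and Ly6h on chromosome 15, at 74747856 to 74752979 and 75564745 to 75569470.

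Promoter sequences of RefSeq (GRCm38.p6, 250 bases before to 50 after a start) were found for 5 of the 10 members. The first 3 below belong to the cluster whose members Chrna3 and Chrnb4 were higher in IP, and the last to Chrna4, which was lower, so that the sequences of genes that moved apart can be read side by side. They come from chr9:55026513-55026812, chr9:55048495-55048794, chr9:54981238-54981537 (the second of the Chrna5 starts in that table) and chr2:181039128-181039427. Capitals mark the GC box GGGCGG, a motif bound by Sp1 and Sp3, and the CACCC box CACCC, each on either strand.
Chrna3: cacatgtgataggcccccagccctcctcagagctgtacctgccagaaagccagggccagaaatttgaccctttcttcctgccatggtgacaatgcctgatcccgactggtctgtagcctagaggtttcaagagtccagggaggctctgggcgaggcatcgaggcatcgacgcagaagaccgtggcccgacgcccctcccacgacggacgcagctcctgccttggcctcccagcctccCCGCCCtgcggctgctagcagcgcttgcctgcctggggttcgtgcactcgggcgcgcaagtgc
Chrnb4: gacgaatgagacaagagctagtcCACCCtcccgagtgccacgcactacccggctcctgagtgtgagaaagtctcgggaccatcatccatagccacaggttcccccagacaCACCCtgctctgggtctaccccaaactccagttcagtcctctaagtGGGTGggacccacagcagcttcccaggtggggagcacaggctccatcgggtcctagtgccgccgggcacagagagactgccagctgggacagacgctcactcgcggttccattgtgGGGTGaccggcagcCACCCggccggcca
Chrna5: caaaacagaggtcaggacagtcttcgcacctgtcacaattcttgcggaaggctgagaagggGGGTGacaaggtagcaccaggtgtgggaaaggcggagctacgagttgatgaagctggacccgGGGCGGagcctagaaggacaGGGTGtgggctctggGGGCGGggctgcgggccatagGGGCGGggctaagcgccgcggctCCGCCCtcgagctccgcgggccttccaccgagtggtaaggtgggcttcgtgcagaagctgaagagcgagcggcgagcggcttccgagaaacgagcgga
Chrna4: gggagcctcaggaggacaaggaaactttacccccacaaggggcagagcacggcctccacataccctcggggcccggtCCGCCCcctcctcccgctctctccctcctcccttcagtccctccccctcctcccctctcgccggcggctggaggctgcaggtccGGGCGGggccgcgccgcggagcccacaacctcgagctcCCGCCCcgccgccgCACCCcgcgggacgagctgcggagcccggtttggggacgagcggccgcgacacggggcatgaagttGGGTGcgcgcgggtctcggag
The Chrna3 window held 1 GC box and 0 CACCC boxes, and the Chrnb4 window 0 GC boxes and 5 CACCC boxes. The printed Chrna5 window held 4 and 2, and the Chrna4 window 3 and 2. The window at the first Chrna5 start of the table (chr9:54980630-54980929) held 0 and 0 and had 41.3% G and C, so the counts for Chrna5 depend on the start taken. The Chrna4, Chrnb4 and printed Chrna5 windows lie wholly inside the gene spans, so none of them is at the outer end of its gene. Those spans end at 181043579 for Chrna4 and 55048953 for Chrnb4, and the span of Chrna5 starts at 54980827. The first Chrna5 window reaches across that start. A GC box was found in 35.66% of all 32851 promoter windows and a CACCC box in 57.52%. The E-box CANNTG, found in 72.31% of windows, occurred 3 times for Chrna3, 2 times each for Chrnb4 and Chrna5 and 0 times for Chrna4. The TATA box TATAAA (13.62% of windows) was in none of these 4. In the printed windows the G and C content was 64.3% for Chrna3, 63.0% for Chrnb4, 65.0% for Chrna5 and 74.3% for Chrna4, against a median of 52.7% over all windows. Chrna3 and Chrnb4, the pair with the largest fold changes among the members, had neither the GC nor the CACCC motif in common in these windows. The window of Chrnb2, not printed, held 1 GC box, 1 CACCC box and 2 E-boxes and had 59.0% G and C.

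Among the subunits, Chrna3 and Chrnb4 were bright in IP and far higher than in UB. Chrna3, the main alpha subunit of ganglionic and habenular receptors, had levels of 11.14, 11.44 and 11.61 on the IP arrays and of 7.37, 7.42 and 7.37 on the UB arrays. Chrnb4, the beta subunit it pairs with, had 10.90, 11.18 and 11.55 on the IP arrays and 7.25, 7.35 and 7.25 on the UB arrays. For both genes every IP array lay more than 3 log2 units above every UB array, and IP replicate 1 was the lowest and IP replicate 3 the highest of the IP arrays. The spread within IP was wider than within UB: for Chrnb4 the SD was 0.32 in IP and 0.06 in UB (n = 3 each). The spiked-in controls averaged 11.55, 11.53 and 11.21 on the IP arrays, and their part in that spread was not tested.

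The fold change of Chrna3 was 4.0 ± 0.13 (SE), with a 95% interval of 3.66 to 4.34 (limma, adjusted p = 7.32e-06). That of Chrnb4 was 3.92 ± 0.18, with an interval of 3.45 to 4.38 (limma, adjusted p = 2.65e-05). In order of fold change they stood at places 56 and 66 of the 8960 tested probe sets. The fold changes of the pair differed by 0.08 ± 0.06 (SE over arrays, unpaired). Within preparations IP exceeded UB by 3.76, 4.0 and 4.23 for Chrna3 and by 3.64, 3.82 and 4.28 for Chrnb4. Each was called higher under all 21 alternative settings, with fold changes from 3.88 to 5.55 for Chrna3 and from 3.73 to 5.47 for Chrnb4. By signal, Chrna3 ranked 1215 of 17306 probe sets in IP and 6456 in UB, and Chrnb4 1334 in IP and 6638 in UB. Ranks compare the signals of probe sets that bind with different strength, so they describe the arrays and not transcript numbers.

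**Figure D1:**
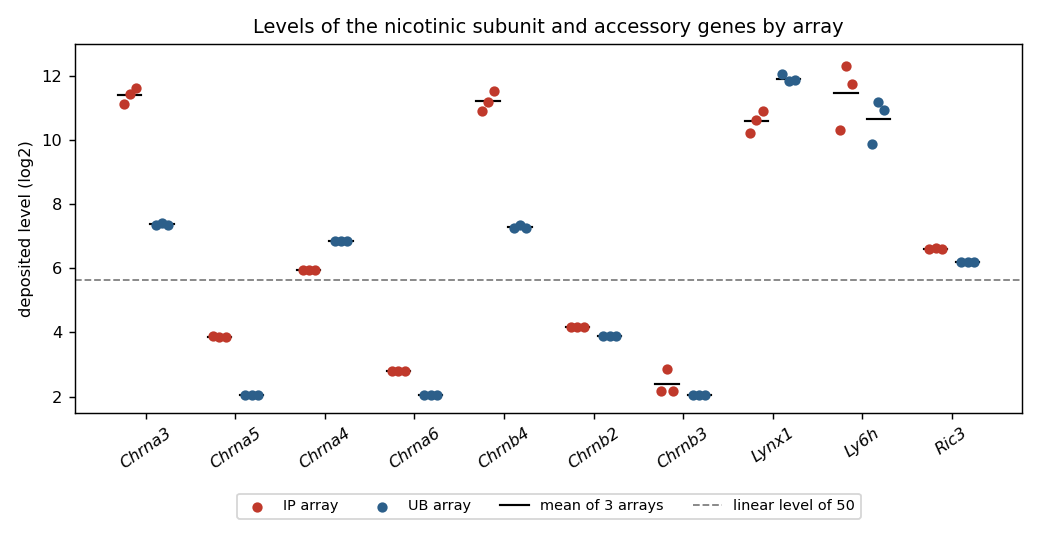
Deposited log2 level of each of the 10 genes on the 3 IP arrays (red) and the 3 UB arrays (blue), with the mean of 3 arrays as a bar and the linear level of 50 as a dashed line. Chrna3 and Chrnb4 lie near 11 in IP and near 7 in UB, Lynx1 and Ly6h are bright in both, and Chrna5, Chrna6, Chrnb2 and Chrnb3 lie below the line on all arrays.

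Chrna4, the alpha subunit of the most widespread high-affinity nicotine receptor of the brain, went the other way. It stood at 5.94 on all 3 IP arrays and at 6.84 on all 3 UB arrays, so the fractions did not overlap and neither showed any spread. Its fold change was -0.91 ± 0.01 (limma, adjusted p = 3.11e-08), an SE that rests on equal values within each fraction and not on measured variation. The call depended on the scaling. When the fractions were given equal medians over the whole table, which moves every fold change up by 1.55, it was 0.64 and called higher, and with quantile normalization it was -0.02 and not called (adjusted p = 0.657). The fold change of Chrna3 exceeded that of Chrna4 by 4.91 ± 0.14 (SE over arrays, unpaired). A common offset of the IP arrays has no bearing on that difference.

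Chrnb2, the usual beta partner of Chrna4, was under 50 on all 6 arrays, at 4.18 on each IP array and 3.88 on each UB array. The same held for the other 3 subunit genes. Chrna5, the accessory subunit encoded beside Chrna3, stood at 3.87 on every IP array and at 2.05, the lowest value of the UB arrays, on every UB array. Chrna6, an alpha subunit known from dopamine and retinal neurons, stood at 2.80 on every IP array and at that lowest value in UB. Chrnb3, which commonly joins Chrna6, had 2.17, 2.86 and 2.17 on the IP arrays and the lowest value in UB. All 4 thus had higher deposited values in IP, but at levels where no fold is given, and they were not tested. The lowest values of IP (2.10) and UB (2.05) themselves differ, and the 8 measured subunits of muscle, cochlear and other receptors (Chrna7, Chrna9, Chrna2, Chrna1, Chrnb1, Chrng, Chrne and Chrnd) lay within 0.01 of them on all arrays. Low signal here means a level under the chosen cut of 50, not that the transcript is absent. Chrnb2 in both fractions and Chrna5 in IP lay above those lowest values. The cluster on chromosome 9 therefore holds a pair of bright genes and, with Chrna5, a gene under the level counted as signal in both fractions.

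The accessory genes did not move together. Lynx1, which dampens nicotinic receptors at the cell surface, had levels of 10.24, 10.64 and 10.91 on the IP arrays and of 12.05, 11.86 and 11.86 on the UB arrays. Every IP array lay below every UB array, and the fold change was -1.34 ± 0.19, with an interval of -1.84 to -0.85 (limma, adjusted p = 0.00229), which is 2.54-fold lower in IP. Lynx1 was still among the brighter probe sets of IP, at rank 1806 of 17306, against rank 796 in UB. Within preparations the difference was -1.83, -1.24 and -0.97. Under whole-table medians the fold change was 0.21 and not called (adjusted p = 0.344). The gene table lists SLURP-2 as a synonym of Lynx1 and holds Slurp2 as the gene next to it. Slurp2 was not analysed here.

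Ly6h, whose product limits how many Chrna7 receptors reach the surface, had levels of 10.32, 12.32 and 11.76 on the IP arrays and of 9.88, 11.18 and 10.94 on the UB arrays. The fractions overlapped, since IP replicate 1 lay below UB replicates 2 and 3, and replicate 1 was the lowest in both fractions. The fold change was 0.78 ± 0.67, with an interval of -0.97 to 2.53, and was not called (limma, adjusted p = 0.334). Within preparations IP was higher in 3 of 3, by 0.42, 1.12 and 0.80, and with the replicate number as a block the same fold change was called higher (limma, adjusted p = 0.0364, a fit that called 32.5% of tested probe sets higher and 44.2% lower). Ly6h was also called when each array had an offset from its own controls (limma, adjusted p = 0.0176), but that fit hardly used a gene's own spread. Under it, Ric3 (fold change 0.42, SE 0.009 in the main fit) had an adjusted p of 0.209. The assembly gene Creld1 (0.44, SE 0.401 in the main fit) had 0.198. The call under that offset therefore does not weigh the wide spread of Ly6h. Over the 21 alternatives the adjusted p of Ly6h ran from 0.0176 to 0.671. The fold change of Ly6h exceeded that of its family member Lynx1 by 2.12 ± 0.65 (SE over arrays, taken without the pairing of replicate numbers).

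Ric3, the chaperone that helps nicotinic subunits to fold and assemble, had levels of 6.61, 6.63 and 6.61 on the IP arrays and 6.18 on each UB array. Every IP array was above every UB array, by a fold change of 0.42 ± 0.01 (limma, adjusted p = 1.55e-06), or 1.34-fold. As for Chrna4, the UB values were equal on all arrays and the SE is that of near-equal values. The call was lost when each array had an offset from its own controls (limma, adjusted p = 0.209). As said for Ly6h, that fit hardly used a gene's own spread. Of the 10 members, 6 were tested, 3 of them called higher (Chrna3, Chrnb4 and Ric3) and 2 lower (Chrna4 and Lynx1), and the arrays of the fractions did not overlap for 5. Set against backgrounds of 30.9% higher, 43.5% lower and 80.0% without overlap, these counts say little about the members as a group. The median fold change over the 6 was 0.60, and that over all tested probe sets -0.17.

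**Figure D2:**
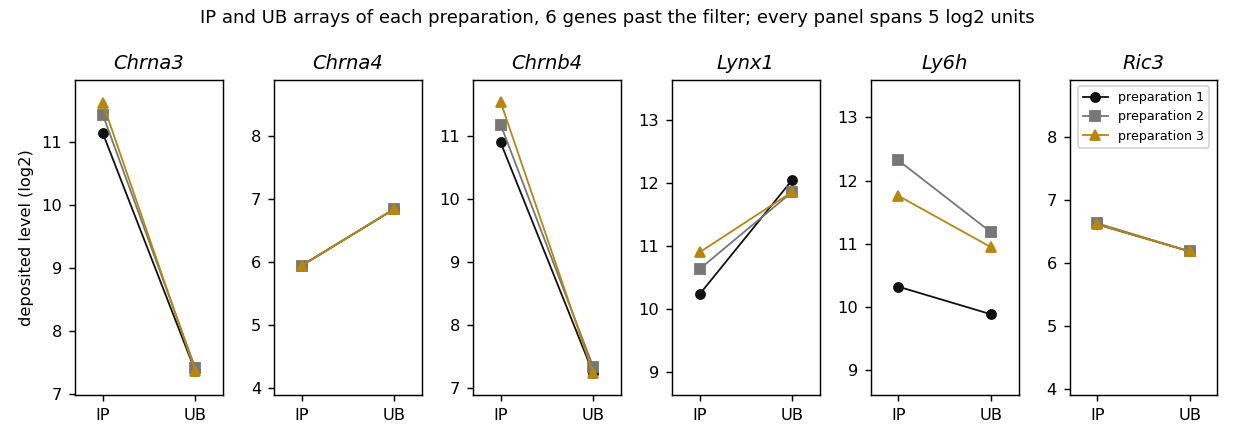
Deposited log2 level in IP and UB of the 3 preparations (1 line each) for the 6 tested genes, with the same span of log2 units in every panel. Chrna3 and Chrnb4 are higher on the IP side in all preparations, Lynx1 and Chrna4 are lower on the IP side, and the Ly6h lines all slope the same way with preparation 1 lowest.

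The genes whose 6 array values lay nearest to a member, by Euclidean distance among 16463 other genes, were looked up as a description. Chrna3 and Chrnb4 were each other's nearest gene, at a distance of 0.40 over 6 arrays. The next for Chrnb4 were Tnfaip8l1 (0.66), Map3k6 (0.97), Cytip (0.97) and Tafa1 (1.00). For Chrna3 they were Scube1 (0.88), Tafa1 (0.92), Tnfaip8l1 (0.94) and Cytip (0.96). Thus 3 genes, Tnfaip8l1, Tafa1 and Cytip, were near both subunits, with fold changes of 3.48, 3.34 and 3.38. For Lynx1 the nearest were Dbp, a transcription factor of the circadian clock (0.29), Pura (0.53), Supt5 (0.56), the synaptotagmin gene Syt11 (0.57) and Ywhag (0.59). For Ly6h they were Podxl2, Npdc1, Alad, Gm1673 and Fkbp8, at 0.69 to 0.86. The nearest to Chrna4 (Zfp763, Mtmr12, Sertad2, Rac3 and Rnf19b) and to Ric3 (Smg9, Celsr3, Ccdc141, 4632415L05Rik and Mex3d) were genes of equally low signal, at distances of 0.18 to 0.21 and of 0.06 to 0.22.

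The genes next to the members did not share the fold changes of Chrna3 and Chrnb4. Of 42 neighbouring protein-coding genes, 3 on each side of every member or cluster, 33 had a probe set and 16 were tested, with 7 called higher, 6 lower and 3 not called, beside 30.9% higher and 43.5% lower over all tested probe sets. Beyond Chrnb4, the ubiquitin-conjugating enzyme gene Ube2q2 had levels of 10.90, 10.35 and 10.53 on the IP arrays and of 9.86, 9.68 and 9.5 on the UB arrays. Its fold change was 0.89 ± 0.18 (limma, adjusted p = 0.00861), and that of the next gene, the F-box gene Fbxo22, was 0.65 ± 0.04 (adjusted p = 9.73e-05). The Ube2q2 call was lost when preparation 2 or 3 was left out (limma, adjusted p = 0.0505 and 0.0891). The Fbxo22 call was lost when each array was offset by its own controls (limma, adjusted p = 0.0526), the fit that hardly used a gene's own spread. On the side of Chrna5, Hykk and AY074887 were under 50 on all arrays. Near Chrnb3 and Chrna6, the netrin receptor gene Unc5d was at least 4.51-fold lower in IP and the phosphatase gene Dusp26 1.93-fold higher. Near Chrna4, Nkain4 and Arfgap1 were at least 3.24-fold and 2.5-fold lower, and the elongation factor gene Eef1a2 was not called (0.19). Near Ric3, Tub was 3.81-fold lower and the LIM-domain gene Lmo1 2.41-fold higher. Trim66 was 1.22-fold lower and Eif3f was not called (0.06). Near Chrnb2, Pmvk and Ube2q1 were higher (0.49 and 0.51) and the RNA-editing gene Adar lower (-0.73). Near Ly6h, Zfp41 was higher (0.18) and Top1mt was not called (0.37). Without IP replicate 1, Top1mt was called higher (0.60, adjusted p = 0.0352), as it was with quantile normalization (0.75, adjusted p = 0.0112), and Eef1a2 was called higher without preparation 1 (0.48, adjusted p = 0.0262). Whole-table medians made Top1mt, Eef1a2 and Eif3f higher (1.92, 1.74 and 1.61). Pmvk, Ube2q1, Zfp41 and Trim66 were not called under 2, 7, 9 and 4 of their alternatives, and the directions of Arfgap1, Adar and Trim66 turned under whole-table medians.

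**Figure D3:**
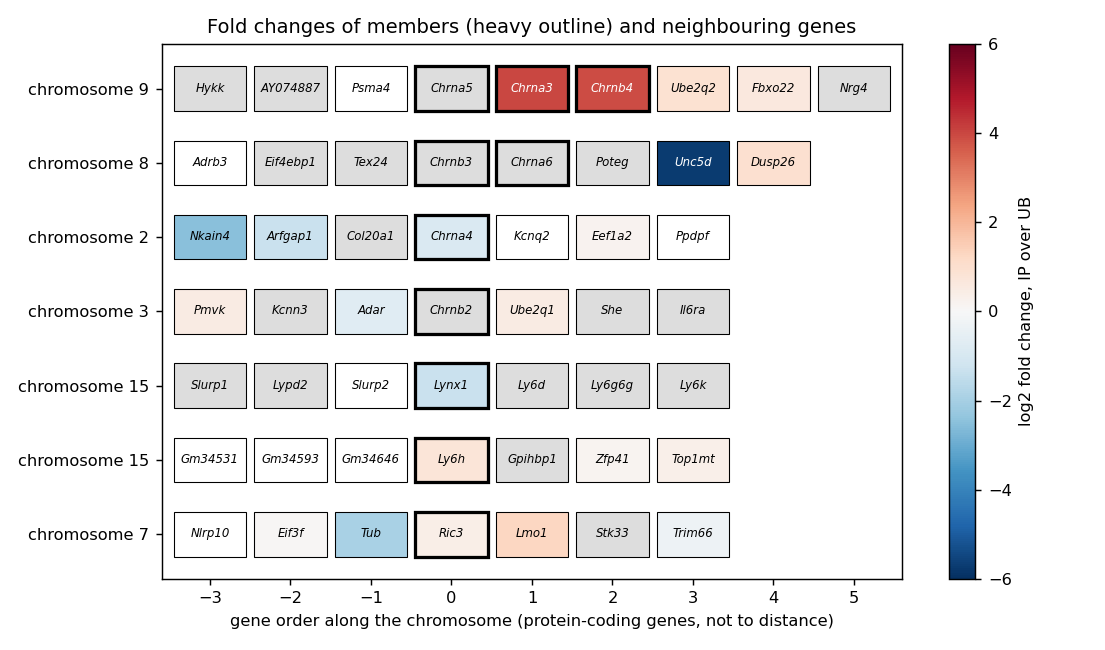
Fold change (log2, IP over UB) of each member (heavy outline) and of the 3 nearest protein-coding genes on each side, drawn in gene order and not to distance. Grey boxes were measured but not tested and white boxes had no value here. Chrna3 and Chrnb4, at 4.0 and 3.92, stand beside neighbours at 0.89 or below.

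Other members of the Ly6 family were lower in IP or near equal in both fractions. Of 10 with a probe set, 5 were tested, 4 of them called lower and 0 higher (43.5% and 30.9% over all tested probe sets), and the other 5 were under 50 on all arrays. With tied probe sets (equal values on all arrays of a fraction) left out of the fit, 2 were called lower. Lypd1 and Lypd6 are tied and were not tested there. Without adjustment, 0 of these 5 had p under 0.05 in the upward direction. Lypd6b, a relative of Lynx1 that binds nicotinic receptors, had levels of 3.81, 3.45 and 3.45 on the IP arrays and of 10.93, 10.83 and 10.99 on the UB arrays, at least 38.6-fold lower in IP (limma, adjusted p = 4.85e-07). Lypd6, its close paralog, was at 2.33 on each IP array and at 8.22 to 8.52 on the UB arrays, at least 6.49-fold lower (adjusted p = 2.61e-07). Lypd1, also called Lynx2, was at 3.95 on each IP array and 8.74 on each UB array, at least 8.53-fold lower (limma, adjusted p = 3.51e-11). As for Chrna4, that p-value rests on equal or near-equal values within each fraction. All 3 were under 50 on every IP array. Of the thalamic and lateral habenula markers, 10 of 10 tested were called lower too, with median fold changes of -4.76 for thalamus and -4.66 for lateral habenula once genes under 50 on all IP arrays are set at their bound, and their part in the lower levels of these 3 genes was not tested. The complement regulator gene Cd59a was at least 2.97-fold lower. Ly6e had nearly equal levels, 10.37, 10.81 and 10.98 in IP and 10.35, 10.77 and 10.97 in UB, and its fold change was 0.01 with an interval of -0.62 to 0.63.

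Of 11 measured genes of receptor assembly and trafficking, 10 were tested, 2 called higher and 5 lower, near the 30.9% and 43.5% of all tested probe sets. Under whole-table medians 9 were called higher and 1 lower, and with tied probe sets left out 2 and 1. Canx, Pdia3, Ubqln1 and Vsnl1 are tied and were not tested in the latter fit. Tmem35a encodes NACHO, a chaperone of neuronal nicotinic receptors. Its levels were 10.20, 10.69 and 11.08 on the IP arrays and 9.07, 9.22 and 9.07 on the UB arrays, with no overlap. It was 2.88-fold higher in IP (fold change 1.53 ± 0.24, limma, adjusted p = 0.00361), a call lost without preparation 2 (1.56, adjusted p = 0.0608). Rer1, a sorting receptor that holds unassembled muscle receptor subunits back, was 1.96-fold higher, at 11.26, 11.41 and 11.35 in IP and 10.36, 10.34 and 10.34 in UB (adjusted p = 3.07e-05). Vsnl1, a calcium sensor that raises surface levels of receptors with the Chrna4 subunit, showed the deepest drop of this list. It was at 6.62 on each IP array, against 13.03, 13.08 and 13.40 on the UB arrays, and 94.5-fold lower (adjusted p = 5.01e-07).

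General folding factors of the endoplasmic reticulum were modestly lower in IP: Hspa5 1.78-fold, Pdia3 1.60-fold and Canx 1.34-fold, with the ubiquitin adaptor gene Ubqln1 1.5-fold lower. Each of these 4 turned higher under whole-table medians (log2 values of 0.72, 0.87, 1.13 and 0.96). The Canx and Ubqln1 calls were also lost when each array was offset by its own controls (limma, adjusted p = 0.229 and 0.0787). That fit hardly used a gene's own spread. With quantile normalization Canx was not called either (-0.07, limma, adjusted p = 0.35). Calr (-0.44), Ubxn2a (-0.04) and Creld1 (0.44) were not called. With the replicate number as a block, Creld1 was called higher (adjusted p = 0.0471), and IP exceeded UB in 3 of 3 preparations by 0.68, 0.42 and 0.23. Ubxn2a was called lower without UB replicate 1 (-0.15, adjusted p = 0.0098) and without preparation 1 (adjusted p = 0.0204). Atf6 was under 50 on all arrays.

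Of 8 measured scaffold genes of nicotinic and other synapses, 7 were tested, 5 called lower and 0 higher, beside 43.5% and 30.9% over all tested probe sets. The directions rested on the scaling: under whole-table medians 1 was called lower and 4 higher, and Apc (0.77), Mapre1 (0.0185), Dlg3 (0.82) and Nlgn1 (0.56) changed sign. With tied probe sets left out, 2 were called lower, and the tied genes Apc, Mapre1 and Macf1 were not tested. The cytoskeletal linker gene Macf1 was at least 3.23-fold lower in IP, the microtubule end-binding gene Mapre1 2.89-fold and Apc, which gathers receptors with the Chrna3 subunit at ganglionic synapses, at least 1.57-fold. Dlg3 was 1.66-fold and the neuroligin gene Nlgn1 1.99-fold lower. Nlgn1 was not called under 11 of 21 alternatives (adjusted p up to 0.221), among them the replicate block (0.0527). The scaffold genes Dlg2 (0.02) and Dlg4 (-0.16) were not called. Without UB replicate 2, Dlg2 was called higher (0.10, adjusted p = 0.0135), and without UB replicate 1, Dlg4 was called lower (-0.63, adjusted p = 0.0421). Iqgap1 was under 50 on all arrays. At an unadjusted p under 0.05, 0 of the 7 were higher.

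The last list held transcription factors described as regulators of the Chrna5, Chrna3 and Chrnb4 cluster. Of 7 measured, 6 were tested, 1 called higher and 4 lower (30.9% and 43.5% over all tested probe sets). With tied probe sets left out, 1 was called lower, and the tied genes Sp1, Sox10 and Sox11 were not tested. Under whole-table medians 2 were called higher. Pou4f1, the POU-domain factor that defines medial habenula neurons, was the gene that rose. Pou4f1 was also on the list of cholinergic markers given above, so its call is counted there too. It had levels of 12.53, 12.36 and 12.36 on the IP arrays and 10.71, 10.83 and 10.45 on the UB arrays, 3.35-fold higher in IP (limma, adjusted p = 1.32e-04). Sp1 was 5.09-fold lower, at 5.80 on each IP array and 8.12 to 8.16 on the UB arrays, while Sp3 was not called (-0.17, adjusted p = 0.119). Without IP replicate 1, Sp3 was called lower (-0.26, adjusted p = 4.61e-04), and likewise without preparation 1 (adjusted p = 0.00319). Jun was at least 11.8-fold lower. Sox10, a factor of the oligodendrocyte lineage, and Sox11 were lower by at least 1.59-fold and 3.78-fold. Phox2a, a factor of autonomic neurons, was at the lowest value of both fractions.

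**Figure D4:**
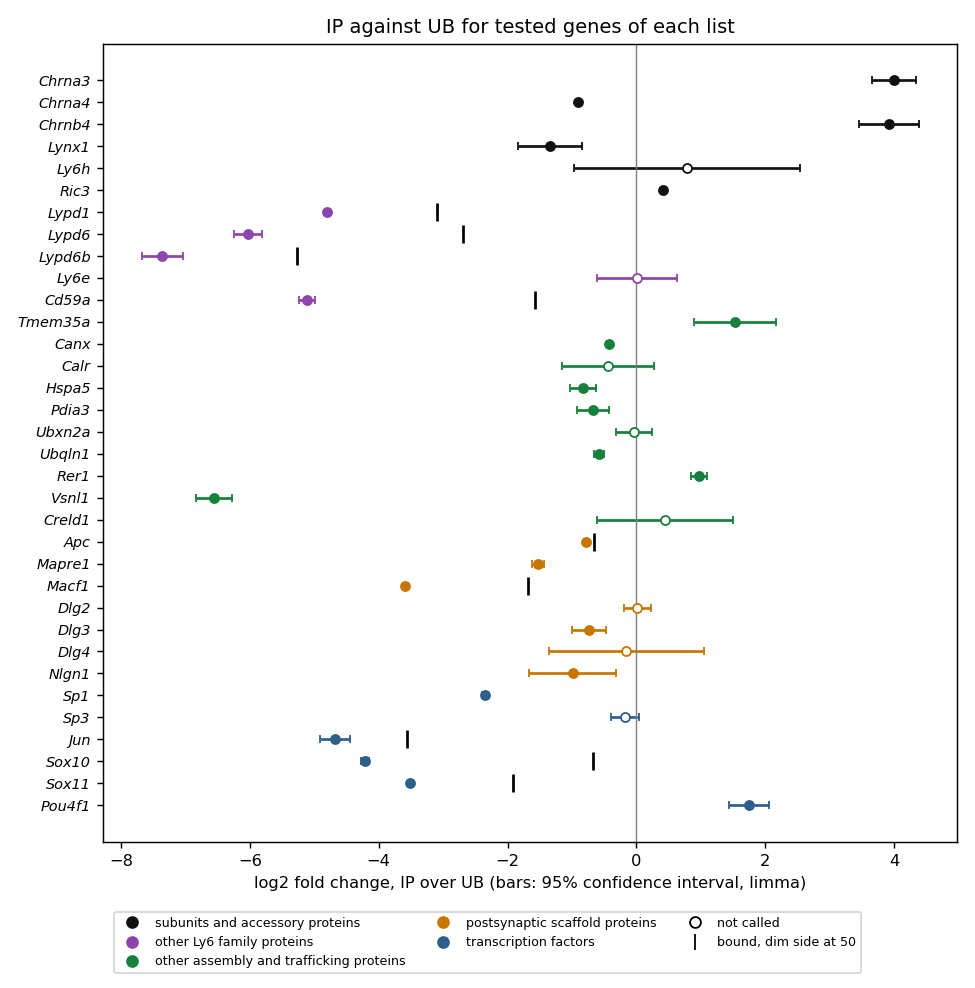
Fold change (log2, IP over UB) with its 95% interval for every tested gene of the members and the 4 related lists, open circles marking genes that were not called and vertical ticks the bound for genes under 50 in one fraction. Chrna3 and Chrnb4 lie near 4, Tmem35a and Pou4f1 between 1 and 2, and Lypd1, Lypd6, Lypd6b and Vsnl1 below -4.

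The scaling between the fractions set the direction of some members and not of others. As deposited, with no offset, Chrna3, Chrnb4, Ly6h and Ric3 had fold changes of 4.01, 3.93, 0.80 and 0.43, and Chrna4 and Lynx1 of -0.90 and -1.33. Under whole-table medians, Chrna3 and Chrnb4 stood at 5.55 and 5.47, Ly6h at 2.33 and Ric3 at 1.97, all 4 called higher, and Chrna4 was called higher too. Positive values of Chrna3, Chrnb4, Ly6h and Ric3 were thus found under all 5 scalings shown in the plot, and Chrna4 and Lynx1 changed sign under whole-table medians.

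**Figure D5:**
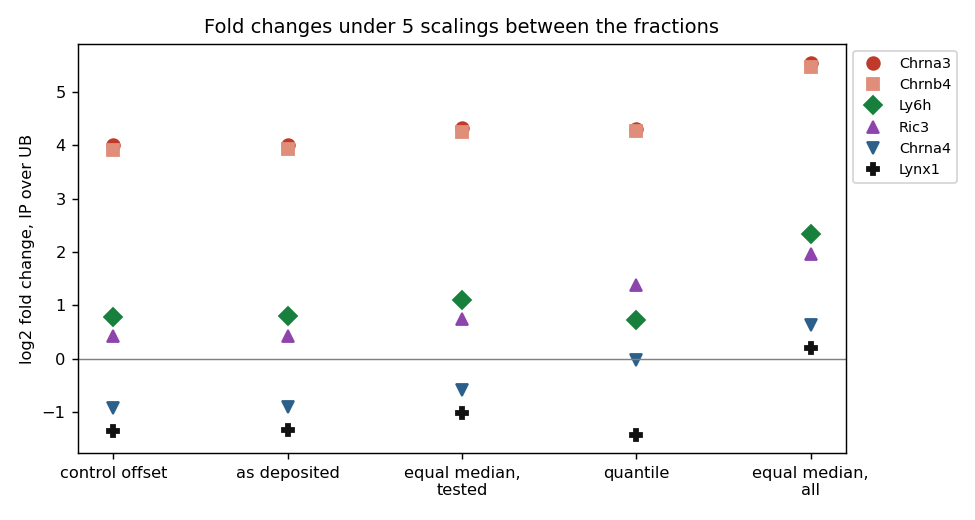
Fold change (log2, IP over UB) of the 6 tested genes under 5 scalings between the fractions, from the control offset on the left to equal medians over the whole table on the right. Chrna3 and Chrnb4 stay between 3.92 and 5.55, and Chrna4 and Lynx1 lie above 0 at the far right.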

How the data were processed

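The labels' protocols describe affinity purification of tagged ribosomes, Trizol extraction, DNase treatment and 2-cycle biotin labelling from 20 ng of RNA. The deposited values are log2 levels per probe set made by the authors with GCRMA, per the submitters' processing notes; no version of it is named there. Per the series' design text, replicates were normalized within groups. Many dim probe sets have equal values on all arrays of a fraction. Gene identifiers were named through RefSeq GRCm38.p6 (16464 matched, 842 unnamed, 64 controls).

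IP arrays were lowered by 0.016, the mean IP minus UB difference of 18 biotinylated controls (SE 0.031 over controls). Probe sets with at least 3 arrays at 50 or more (8960) were compared with limma 3.58.1 in R 4.3.3 (two-sided, variance following the mean, Benjamini-Hochberg over all 8960), tested on simulated data; 6859 had an unadjusted p under 0.05. For a fraction with no array at 50, the fold was taken against 50 and is a bound. The 6 arrays limit the precision. Replicate numbers pair IP with UB, since the labels derive each UB sample from the replicate; deviations from the group means correlated by 0.592, 0.483 and 0.279 within pairs and by -0.514 to 0.315 between unlike numbers, where IP replicate 3 with UB replicate 2 (0.315) exceeded pair 3. That replicates came from separate animals is not stated beyond "biological". The p-values measure the spread between these samples that was left after normalization within each fraction. How far that step narrowed the spread was not tested. Named were all members, all other measured subunits, tested genes of the related lists, the 3 nearest genes on each side and the 5 nearest patterns per tested member. Members and lists were chosen with earlier results of these data known. Tables and figures used Python 3.11.15, pandas 2.3.3 and matplotlib 3.10.9.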

Additional observations from a re-analysis of the deposited data

How the results depend on the processing

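The 21 alternatives changed the scaling, the filter, the variance model, the block or the arrays. The counts of members called higher (3) and lower (2) were 3 and 2 whenever arrays were left out. They were 5 and 0 when medians were equalised over the whole table. Without a filter 6 members were called higher, where the lowest values of IP (2.10) and UB (2.05) also count as different. Called lower was 1 member with quantile normalization. With tied probe sets left out, 2 members were called higher and 1 lower, since Ric3 and Chrna4 were not tested in that fit. A filter at 100 left Ric3 untested as well, with 2 members called higher. Over all tested probe sets, 6631 were called higher and 1586 lower with whole-table medians, 8557 and 5998 with no filter, and 2123 lower with tied probe sets left out. Related genes called higher numbered 3, and 16 with equal medians, 5 with quantile normalization and 16 with no filter. Called lower were 18, and 10 with equal medians and 6 with tied probe sets left out. Tied probe sets are not tested in that last setting, so a smaller count there is not by itself a loss of calls. With whole-table medians the sign turned for Chrna4 (0.64), Lynx1 (0.21), Canx (1.13), Calr (1.11), Hspa5 (0.72), Pdia3 (0.87), Ubxn2a (1.51), Ubqln1 (0.96), Apc (0.77), Mapre1 (0.0185), Dlg3 (0.82), Dlg4 (1.39), Nlgn1 (0.56), Sp3 (1.38), Arfgap1 (0.23), Adar (0.82) and Trim66 (1.26). It turned with medians equalised over tested probe sets for Ubxn2a (0.29), Dlg4 (0.17), Sp3 (0.15) and Trim66 (0.0409). Quantile normalization turned Ly6e (-4e-04), Apc (0.30), Dlg4 (0.66), Sp3 (0.14), Eef1a2 (-0.0897) and Eif3f (-0.25), and levels raised to 50 turned Dlg2 (-0.0138). Leaving out arrays turned the sign of 6 uncalled genes, with ranges of -0.17 to 0.18 for Ly6e, -0.15 to 0.0316 for Ubxn2a, -0.0377 to 0.0991 for Dlg2, -0.63 to 0.22 for Dlg4, -0.045 to 0.65 for Eef1a2 and -0.0451 to 0.22 for Eif3f. The causes were not tested. The replicate block called Ly6h and Creld1 and lost Nlgn1 as given above (adjusted p = 0.0364, 0.0471 and 0.0527), with 2911 probe sets higher and 3963 lower, and changed no other call among the genes named. Signal under 50 in both fractions limits Chrna5, Chrna6, Chrnb2 and Chrnb3, for which no fold is given.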
